A study of Mus musculus with 2 samples.

Results

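Cholesterol genes were followed in lung endothelial cells (ECs) 6 h after melanoma cells reached the lung. The set held 26 genes of the 32285 listed for both libraries, chosen by gene symbol alone: 17 enzymes of cholesterol synthesis, 5 genes of the sterol sensor and its transcription factors, the sterol carrier Stard4 and the thiolase Acat2, and the efflux pumps Abca1 and Abcg1. Each symbol matched 1 row. The data were 2 droplet single-cell libraries of lung cells from wild-type C57BL/6 mice. The mice were young adult males. Mice of the control group received PBS through the tail vein, and mice of the B16-F10 6 h group received 400000 cells of B16-F10, a mouse skin melanoma line that carried a green tracking dye, in 100 µl. Lungs were taken after 6 h, and cells that carried Pecam1, the CD31 antigen of endothelium, and lacked Ptprc, the CD45 antigen of leukocytes, were sorted. From the injected lungs the dye-labelled melanoma cells were sorted as well and joined the same library. The sample labels give 2 mice per treatment. The methods text gives another number, and cells were pooled. There was 1 library per group, with no replicate and hence no test. Every interval below covers counting error at 95% and says nothing of the spread between mice.

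After limits on genes per cell (1000 to 5000), mitochondrial UMIs (under 20%) and doublets, 7830 control cells with a median of 7510 UMIs and 7767 B16-F10 cells with a median of 8557 UMIs remained. The kept cells of the libraries shared 18 barcodes. Endothelial cells were divided by vessel type, and the name "-like" marks classes drawn from marker genes: general capillary (gCap-like, 4710 control and 4004 B16-F10 cells), aerocyte capillary (aCap-like, 1451 and 973), artery-like (213 and 156), vein-like (299 and 280) and lymphatic (LEC-like, 58 and 51). In gCap-like ECs all 8 endothelial and all 8 gCap markers had UMIs in both libraries, with the gCap markers summed to 5893 and 5293 CPM against 235 and 273 in aCap-like ECs. Endothelial cells of no named type made up 2.97% of control and 12.4% of B16-F10 ECs. Most of these in the B16-F10 library lay in 1 cluster of 40 control and 635 B16-F10 cells whose leading genes included Noct and Fosl1 and which stayed out of the vessel classes.

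Cells make cholesterol from acetyl-CoA. Hmgcs1 and the mevalonate enzymes build isoprenoid units, Sqle and Lss turn squalene into the first sterol ring, and a further series of enzymes trims that ring to cholesterol. When sterol in the endoplasmic reticulum is low, SCAP carries the SREBP transcription factors (Srebf1, Srebf2) to the Golgi for activation, and the INSIG proteins hold SCAP back when sterol is high. Surplus cholesterol leaves the cell through the pumps ABCA1 and ABCG1, whose genes are classical targets of the liver X receptors.

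In gCap-like ECs the synthesis genes were slightly higher after melanoma injection. Summed over the 17 genes, the level was 194 CPM (UMIs per 1000000 UMIs of the class) in the control library (interval 190 to 199) and 222 in the B16-F10 library (217 to 227), a log2 ratio of 0.19 (0.15 to 0.24). Of the 17 genes, 14 were higher in the B16-F10 library, 9 of them with the whole interval above 0, and 3 were lower, 1 of them (Tm7sf2) with the whole interval below 0. The median log2 ratio of the 17 genes was 0.15. Over the 13132 genes with at least 50 UMIs in gCap-like ECs of both libraries together, 46.5% were higher and the median was -0.03, with 28.4% of intervals wholly above 0 and 32.6% wholly below. At a log2 ratio of 0.5 or more, 3 synthesis genes were called higher (Mvd, Sqle and Cyp51), where 8.39% of all genes measured were called higher; 1 was called lower (Tm7sf2), where 10.8% were.

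**Figure D1:**
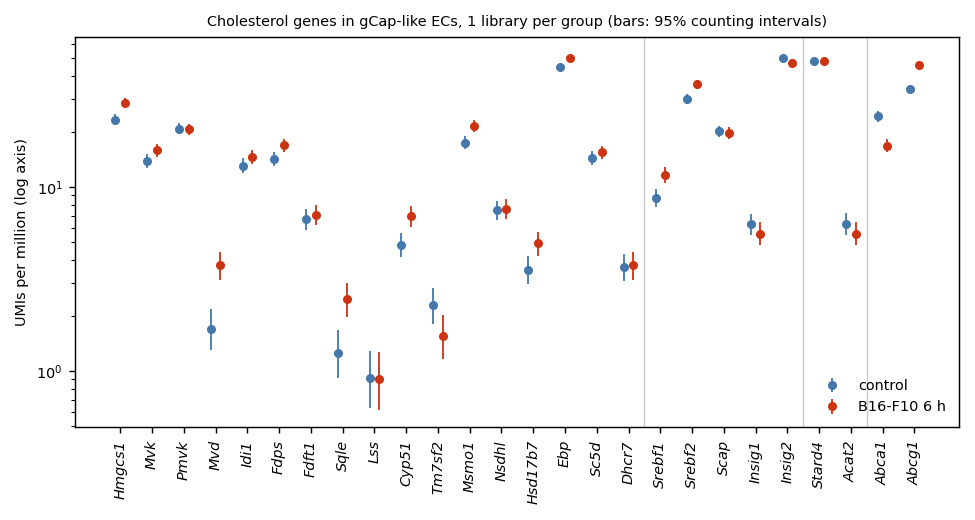
Levels of the 26 genes in gCap-like ECs in CPM on a log axis, with 1 point per library and bars for the 95% counting interval; grey lines divide synthesis enzymes, regulators, Stard4 with Acat2, and efflux pumps. Mvd, Sqle and Cyp51 stand higher in the B16-F10 6 h library, Abca1 lower and Abcg1 higher, while Pmvk, Scap and Stard4 nearly coincide. Levels of different genes were counted at transcript ends and are not to be set against each other.

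The first steps, from acetyl-CoA to isoprenoid units, held the synthesis gene with the largest log2 ratio in gCap-like ECs. Mvd, which makes isopentenyl diphosphate, was counted 61 times in the control library (1.69 CPM) and 133 in the B16-F10 library (3.75 CPM), a log2 ratio of 1.15 (0.70 to 1.61). Hmgcs1, which condenses acetyl groups into HMG-CoA, rested on far more counts and differed less: 23.2 CPM in control and 28.5 in B16-F10, log2 ratio 0.30 (0.16 to 0.43). Among the other genes of this stretch, Mvk (mevalonate kinase) and Fdps (farnesyl diphosphate synthase) had intervals above 0, with log2 ratios of 0.19 and 0.24, which were 0.05 and 0.02 with cells reduced to 2000 UMIs. Idi1, the isomerase, stood at 13.1 and 14.5 CPM, with an interval of -0.03 to 0.33. Pmvk, the second kinase of the pathway, was at 20.8 and 20.6 CPM, and its log2 ratio of -0.02 (-0.16 to 0.13) kept any difference small.

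From squalene onwards, Sqle and Cyp51 stood out by size and Msmo1 and Ebp by depth of counting. Sqle, squalene epoxidase and a rate-limiting step of the pathway, was counted 45 times in control and 87 times in B16-F10, at 1.25 and 2.45 CPM, a log2 ratio of 0.97 (0.44 to 1.53). Cyp51, the lanosterol demethylase, was at 4.83 and 6.94 CPM, with a log2 ratio of 0.52 (0.24 to 0.81) that lay close to the limit for a call. It was under 0.5 with doublets kept (0.45), with at least 500 genes (0.47) and with members kept in clustering (0.39). Hsd17b7 (0.47), Msmo1 (0.30) and Ebp (0.15), which act on the sterol ring after Cyp51, had log2 ratios whose intervals lay above 0, although Ebp was at 0.01 with cells reduced to 2000 UMIs. The ring reductase Tm7sf2 went the other way, counted 82 times in control and 55 times in B16-F10, at 2.28 and 1.55 CPM and a log2 ratio of -0.55 (-1.07 to -0.04), but its call was lost under several other filters, clusterings and scalings. For Fdft1, Lss, Nsdhl, Sc5d and Dhcr7 the intervals included 0, and for Lss, with 33 and 32 UMIs, the interval of -0.77 to 0.72 was too wide to show a difference of the size seen for Cyp51.

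Promoters of these genes are shown because the synthesis genes shared a sequence feature that their choice did not use. RefSeq promoter windows of GRCm38.p6, from 250 bases before to 50 bases after an annotated start, were found for 21 of the 26 genes; none was read for Fdps, Fdft1, Sqle, Stard4 and Abcg1. Of the 14 synthesis genes with a window, all 14 held the NF-Y box CCAAT on either strand in at least 1 window, against 41.1% of the 27025 genes with a window, and 13 held the Sp1 box GGGCGG, against 38.2%. These boxes were not particular to the synthesis genes, since 4 of the 5 regulators held an NF-Y box and all 5 an Sp1 box. The core of the sterol regulatory element, searched as TCACNCCAC on both strands, was present for Hmgcs1 alone among the 21 genes and for 1.44% of all genes. Its variant TCACNCNAC, which contains the core, added Nsdhl and was found for 3.15% of all genes. Other forms of the sterol regulatory element were not searched, so these counts do not show that a gene lacks one. Abca1 held no NF-Y box in its window. The liver X receptor element was searched only as an exact direct repeat of the hexamer AGGTCA with 4 bases between. That exact form was found for none of the 21 genes and for 0.0148% of all genes. Imperfect repeats were not searched, so the result does not speak to imperfect elements, in Abca1 or elsewhere. Such matches describe the letters of a window and not the binding of a factor. Below, capitals mark NF-Y boxes on either strand and, in Hmgcs1, the sterol regulatory element core as well; the windows are Hmgcs1 at chr13:119690101-119690400 (plus strand), Mvd at chr8:122443373-122443672 (minus strand), Cyp51 at chr5:4104648-4104947 (minus strand) and Abca1 at chr4:53159846-53160145 (minus strand), each written 5′ to 3′ along its gene. Hmgcs1 and Mvd show more than 1 NF-Y box, Cyp51 a single one close to its start and Abca1 none.
Hmgcs1: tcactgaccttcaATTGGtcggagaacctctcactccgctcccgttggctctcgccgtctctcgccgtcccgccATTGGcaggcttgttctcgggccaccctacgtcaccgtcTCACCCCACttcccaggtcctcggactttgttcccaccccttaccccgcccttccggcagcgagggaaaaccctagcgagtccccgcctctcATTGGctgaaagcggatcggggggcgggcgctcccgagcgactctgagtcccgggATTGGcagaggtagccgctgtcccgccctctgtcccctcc
Mvd: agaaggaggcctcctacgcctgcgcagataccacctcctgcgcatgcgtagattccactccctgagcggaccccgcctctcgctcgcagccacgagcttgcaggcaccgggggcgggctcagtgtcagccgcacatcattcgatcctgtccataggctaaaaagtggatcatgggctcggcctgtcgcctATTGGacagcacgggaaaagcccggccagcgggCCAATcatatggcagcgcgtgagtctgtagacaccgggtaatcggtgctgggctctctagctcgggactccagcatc
Cyp51: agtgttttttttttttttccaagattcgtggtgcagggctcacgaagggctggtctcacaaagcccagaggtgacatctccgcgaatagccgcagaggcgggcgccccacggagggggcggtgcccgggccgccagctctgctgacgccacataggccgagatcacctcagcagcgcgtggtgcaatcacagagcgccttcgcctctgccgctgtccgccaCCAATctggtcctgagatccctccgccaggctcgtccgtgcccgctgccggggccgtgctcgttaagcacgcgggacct
Abca1: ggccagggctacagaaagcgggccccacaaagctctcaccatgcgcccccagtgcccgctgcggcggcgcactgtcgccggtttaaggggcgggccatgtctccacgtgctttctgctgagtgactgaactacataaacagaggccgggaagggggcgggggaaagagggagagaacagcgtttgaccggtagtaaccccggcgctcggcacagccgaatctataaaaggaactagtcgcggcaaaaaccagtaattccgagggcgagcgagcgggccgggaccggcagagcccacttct

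Of the regulators, both SREBP genes stood above their control levels in gCap-like ECs, and the sensor genes did not. Srebf2, the SREBP that acts mainly on cholesterol genes, was at 30.0 and 36.1 CPM, a log2 ratio of 0.27 (0.15 to 0.39). Srebf1, the SREBP known above all for fatty acid genes, was at 8.75 and 11.7 CPM, a log2 ratio of 0.42 (0.20 to 0.63). Neither reached the 0.5 used for calls. Insig1, which is itself a target of the SREBPs, was at 6.28 and 5.58 CPM, and its log2 ratio of -0.17 (-0.45 to 0.11) lay on the other side of 0 from that of most synthesis genes. Scap at 20.1 and 19.7 CPM and Insig2 at 50.0 and 47.1 had intervals that included 0.

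Stard4, a carrier that moves sterol between membranes, was at 48.1 and 48.2 CPM in gCap-like ECs, a log2 ratio of 0.00 (-0.09 to 0.10), with 1732 and 1709 UMIs behind it. Acat2, the cytosolic thiolase that supplies acetoacetyl-CoA to Hmgcs1, was at 6.30 and 5.58 CPM (interval of the log2 ratio -0.46 to 0.11). Acat2 lies beside its close copy Acat3 on chromosome 17, and reads that both could give are uncertain.

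The efflux pumps differed in opposite directions in gCap-like ECs. Abca1, which loads cholesterol onto lipid-poor apolipoprotein A-I, was counted 873 times in control and 595 times in B16-F10, at 24.2 and 16.8 CPM, a log2 ratio of -0.53 (-0.68 to -0.38), and was called lower. Over all ECs it was -0.32 and with cells reduced to 2000 UMIs -0.34, both short of a call. Abcg1, which exports sterol to formed HDL particles, had 1225 and 1627 UMIs, at 34.0 and 45.9 CPM, a log2 ratio of 0.43 (0.32 to 0.54). Both genes are classical liver X receptor targets, and the intervals of their log2 ratios lay on opposite sides of 0. Over all 26 genes in gCap-like ECs, 3 were called higher and 2 lower, shares near the 8.39% and 10.8% of all genes, and the median log2 ratio was 0.13.

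**Figure D2:**
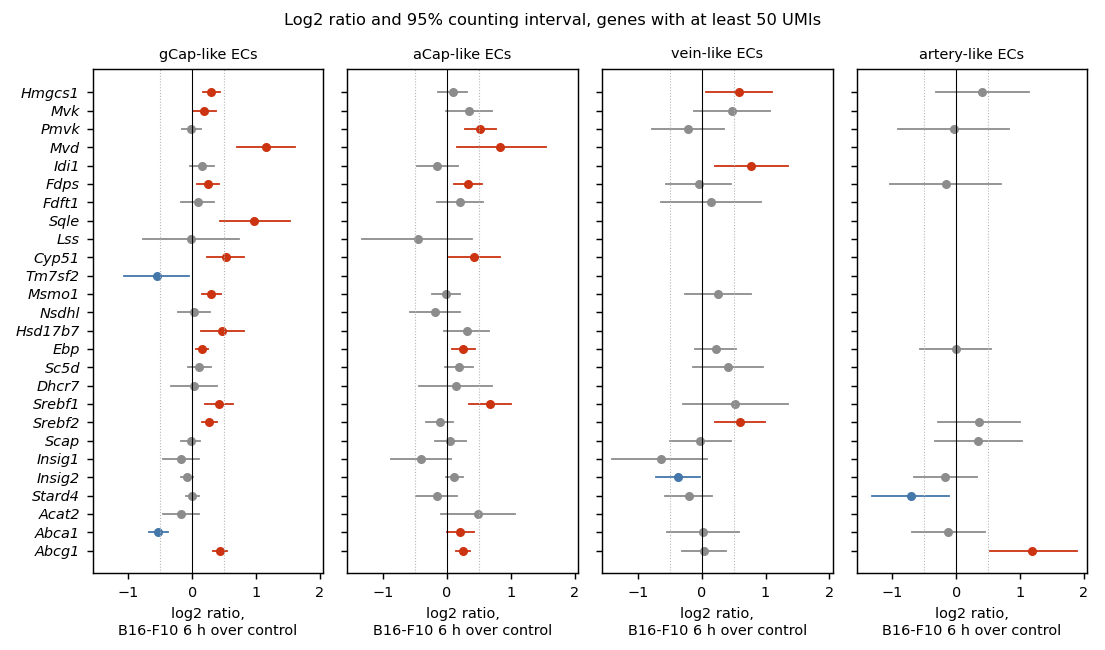
Log2 ratio of the B16-F10 6 h library over control for each gene with at least 50 UMIs in gCap-, aCap-, vein- and artery-like ECs, with 95% counting intervals; red marks intervals above 0, blue intervals below 0, grey the rest, and dotted lines stand at log2 ratios of -0.5 and 0.5. Abca1 is at -0.53 in gCap-like and 0.21 in aCap-like ECs, and few genes were measured well enough in artery-like ECs.

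Cells of a cluster share a library and are not replicates, so clusters that go the same way add no replication. In the 6 clusters that made up the gCap-like ECs, the synthesis sum had log2 ratios between 0.15 and 0.40, with intervals above 0 in each. The share of all genes that went the same way in all 6 clusters was not computed. Mvd, Hsd17b7, Ebp and Srebf2 were higher in all 6 clusters, but their intervals lay above 0 in 3, 2, 1 and 2 of them. Mvd was between 0.94 and 1.23, resting on 1 control and 2 B16-F10 UMIs in the smallest cluster. Abca1 was lower in 5 of 6 clusters (-0.74 to 0.37), with intervals below 0 in 3. Abcg1 was higher in 5 of 6 (-0.17 to 0.63), with intervals above 0 in 4. Control levels of Abca1 ran from 13.1 to 35.6 CPM between the clusters. The clusters held the libraries in different proportions, such as 911 control and 499 B16-F10 cells in 1 and 790 and 966 in another. The part of this mix in the Abca1 ratio of gCap-like ECs was not tested.

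In aCap-like ECs, the thin capillary cells that face the alveoli, the synthesis sum was 247 CPM in control and 284 in B16-F10, a log2 ratio of 0.20 (0.13 to 0.28). Of 15 synthesis genes with at least 50 UMIs there, 11 were higher and 4 lower, with a median log2 ratio of 0.20. Over all 11118 genes measured, 50.6% were higher and the median was 0.01. Called higher were Pmvk (20.4 and 29.3 CPM, log2 ratio 0.52, 0.29 to 0.76) and Mvd (2.36 and 4.22, log2 ratio 0.84, 0.15 to 1.54), where 9.39% of all genes were called higher; no synthesis gene was called lower, where 11.2% of all genes were. Srebf1 was called higher too, at 10.7 and 17.1 CPM (log2 ratio 0.68, 0.35 to 1.00), while Srebf2, at 32.3 and 29.8, was not. Abca1 stood at 29.2 and 33.7 CPM, a log2 ratio of 0.21 (0.00 to 0.42), and Abcg1 at 98.7 and 118, a log2 ratio of 0.25 (0.14 to 0.37), so that in aCap-like ECs both pumps were on the higher side. The aCap-like ECs came from 2 clusters in different proportions, with 880 control and 798 B16-F10 cells in the deeper and 571 and 175 in the shallower, whose control cells had a median of 5626 UMIs. Within the deeper cluster the log2 ratio of the synthesis sum was 0.09 (0.01 to 0.17), and within the shallower it was 0.42 (0.24 to 0.60). Pmvk was at 0.28 (0.03 to 0.53) within the deeper cluster, below the limit for a call, and at 1.39 (0.61 to 2.17) within the shallower. With every cell reduced to 2000 UMIs by random draw, the log2 ratio over aCap-like ECs was 0.38. The part of the cluster mix and of depth in the aCap-like value was not tested.

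In vein-like ECs the synthesis sum had the highest ratio of the 5 vessel types, at 203 and 253 CPM and a log2 ratio of 0.32 (0.16 to 0.47), and its interval overlapped those of gCap- and aCap-like ECs. With cells reduced to 2000 UMIs it was 0.49. Of 9 synthesis genes measured there, 7 were higher and 2 lower, where 46.1% of the 9320 genes measured were higher. Hmgcs1, at 17.2 and 25.7 CPM (log2 ratio 0.58, 0.07 to 1.11), and Idi1, at 13.4 and 22.9 (0.77, 0.20 to 1.36), were called higher, against 7.18% of all genes, and none was called lower, against 8.36%. Srebf2 was at 29.6 and 44.8 CPM, a log2 ratio of 0.60 (0.21 to 0.99), and Srebf1, at 7.32 and 10.5, a log2 ratio of 0.52 (-0.30 to 1.35), so that both SREBP genes were called higher. Insig1 was called lower at 13.4 and 8.57 CPM, with an interval of -1.40 to 0.09, and Abca1 and Abcg1 differed by 0.02 and 0.04 on the log2 scale. Red cell genes stood at 515 CPM in control and 3548 in B16-F10 vein-like ECs, and their part in these values was not tested.

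In artery-like ECs the synthesis sum, at 158 and 173 CPM, had a log2 ratio of 0.13 (-0.12 to 0.38). Of the 4 synthesis genes with at least 50 UMIs, 1 was higher and 3 were lower, where 51.3% of all genes were higher. None of the 4 was called in either direction. There Abcg1 was at 17.4 and 39.7 CPM, a log2 ratio of 1.19 (0.53 to 1.89), and was the member called higher, where 11.6% of all genes were; Stard4, at 41.3 and 25.3 (log2 ratio -0.71, -1.32 to -0.11), was the member called lower, where 10.7% of all genes were. In LEC-like ECs the synthesis sum rested on 105 and 85 UMIs, at 218 and 177 CPM (log2 ratio -0.31, -0.74 to 0.12), and no single synthesis gene reached 50 UMIs. Of the 3 members that did, Abcg1 was called higher (58.2 and 95.6 CPM, log2 ratio 0.72, 0.01 to 1.45), against 11.3% of all genes, and Insig2 lower (76.9 and 39.5, log2 ratio -0.96, -1.84 to -0.13), against 11.1%. With 51 to 213 cells a library, most differences in these classes were not detectable at this depth.

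Several members differed between vessel types in the same direction in both libraries. Against gCap-like ECs of the same library, 11 of the 26 genes were higher and 2 lower in aCap-like ECs with intervals away from 0 in the control and in the B16-F10 library alike, where 25.4% of the 12136 genes measured were higher and 27.4% lower. Hsd17b7, a late sterol reductase, was at 3.56 CPM in gCap-like and 10.5 in aCap-like control ECs and at 4.93 and 13.0 in B16-F10, log2 ratios of 1.56 (1.21 to 1.92) and 1.40 (1.07 to 1.73). Sc5d, the desaturase before Dhcr7, had log2 ratios of 0.97 and 1.04, Fdps 0.84 and 0.93, and the synthesis sum 0.34 (0.28 to 0.40) and 0.36 (0.29 to 0.42). The 2 aCap-like clusters were not alike in this. In control the synthesis sum was 274 CPM in the deeper and 178 in the shallower, against 194 in gCap-like ECs. Fdps was at 30.9 and 12.2 there, against 14.2. In B16-F10 the sum was 292 and 239, against 222. Hsd17b7 and Sc5d were above their gCap-like levels in both clusters and both libraries. Abcg1 was higher in aCap-like ECs by 1.54 and 1.36, and Stard4 was lower by a log2 ratio of -1.76 in control and -1.92 in B16-F10.

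Abca1 stood apart in LEC-like ECs. LEC-like ECs, 58 control and 51 B16-F10 cells, held it at 564 CPM in control (interval 498 to 635) and 603 in B16-F10 (535 to 676), log2 ratios over gCap-like ECs of 4.54 (4.34 to 4.74) and 5.17 (4.96 to 5.37). Free RNA would supply 1.41 and 1.70 CPM of it. Macrophage markers summed to 507 and 723 CPM in LEC-like ECs, from 2 and 3 of 8 genes, against 16.2 and 31.3 in gCap-like ECs. The part of macrophage RNA in these values was not tested. The other types followed far below in the order of their control levels, artery-like ECs at 36.5 and 33.5, aCap-like at 29.2 and 33.7, gCap-like at 24.2 and 16.8 and vein-like at 17.8 and 18.1. Neighbours in this order overlapped in the control library apart from LEC-like ECs and the gap between aCap- and gCap-like ECs. Insig1 in control was at 13.4 CPM (9.64 to 18.1) in vein-like and 12.5 (4.58 to 27.2) in LEC-like ECs, which overlapped, against 6.28 in gCap-like ECs, but in the B16-F10 library the vein-like interval over gCap-like ECs included 0 (-0.02 to 1.20).

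**Figure D3:**
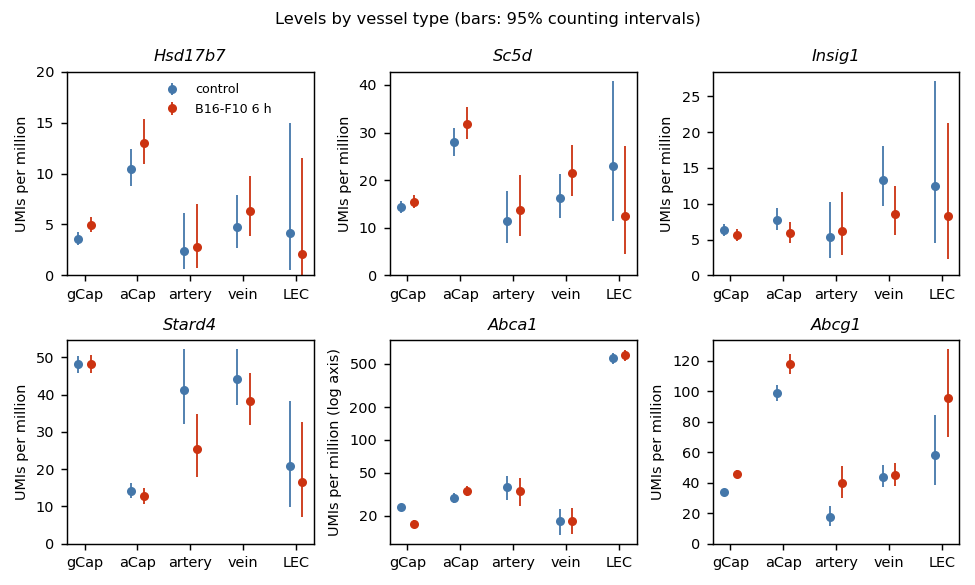
Levels of 6 genes by vessel type and library in CPM, with 95% counting intervals; the axis of Abca1 is logarithmic. Hsd17b7, Sc5d and Abcg1 are highest or near highest in aCap-like ECs, Stard4 is low there in both libraries, and Abca1 in LEC-like ECs stands at 564 and 603.

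The study names a reactive capillary state, rCap, and lists genes that mark it. Each gCap-like cell was reduced to 2000 UMIs by random draw, 38 control and 14 B16-F10 cells with fewer were left out, and the UMIs of rCap list genes were summed to a score. Cells were set in 4 bins by that score. In the lowest bin, 0 to 19 UMIs, stood 2176 control and 293 B16-F10 cells, and in the highest, 36 to 123 UMIs, 178 control and 1851 B16-F10 cells. The rCap list came from the study, which drew it from its own libraries of this experiment, so the share of each library in the bins is not a result here.

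Within bins of equal score no difference in the synthesis sum was detectable at this depth. From the lowest to the highest bin it was 188, 199, 218 and 216 CPM in control cells and 198, 220, 218 and 228 in B16-F10 cells. The log2 ratios in the bins were 0.08 (-0.22 to 0.36), 0.15 (-0.07 to 0.36), 0.00 (-0.19 to 0.20) and 0.07 (-0.26 to 0.43), each with an interval that included 0 and, but for the third bin, also 0.2. The reduced cells held too few counts to separate these values from the 0.19 of all gCap-like cells. A cell reduced to 2000 UMIs held 0.396 synthesis UMIs on average in control and 0.443 in B16-F10, and no more than 4 in either library. Abca1 was at 33.7 CPM in the 178 control cells of the highest bin (17.4 to 58.9) and at 17.02 in the 1851 B16-F10 cells (13.1 to 21.8), a log2 ratio of -0.99 whose interval (-1.89 to 0.04) reached 0. Among the 26 genes in the 4 bins, intervals excluded 0 for Ebp in the third bin and Srebf2 in the highest. Ebp was lower there in B16-F10 cells (log2 ratio -0.55, -0.94 to -0.16). Srebf2 was higher (1.31, 0.05 to 2.96), resting on 5 control UMIs.

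**Figure D4:**
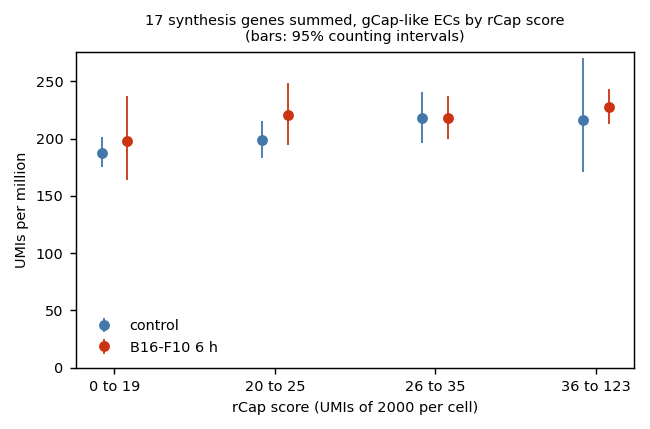
Summed level of the 17 synthesis genes in gCap-like ECs in 4 bins of the rCap score, in CPM with 95% counting intervals, after each cell was reduced to 2000 UMIs. The intervals of control and B16-F10 6 h overlap in all 4 bins.

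The melanoma-like cells of the B16-F10 library, 79 cells named from melanoma markers, differed from the ECs beside them beyond counting error in 5 of the 26 genes that were higher and 8 that were lower. Among all 13090 genes with at least 50 UMIs, 14.8% were higher and 48.7% lower in the same sense, so that these counts are not particular to the members. Fdps was at 198 CPM in melanoma-like cells and 18.8 in all ECs, a log2 ratio of 3.40 (3.16 to 3.64). Cyp51 was at 69.7 and 7.87 (3.15, 2.73 to 3.54) and Insig1 at 34.9 and 5.97 (2.55, 1.95 to 3.09). Sqle and Ebp were also higher. Lower were Hmgcs1, Nsdhl, Srebf1, Srebf2, Scap, Stard4, Abca1 and Abcg1, with Abca1 at 1 UMI, 1.20 CPM against 24.1 in ECs, and Stard4 at 4 UMIs, 4.81 against 36.4. Synthesis genes summed to 457 CPM against 227, but not as a block. Of the 380 synthesis UMIs in melanoma-like cells, 165 were from Fdps and 58 from Cyp51, while Hmgcs1 at the head of the pathway was lower.

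**Figure D5:**
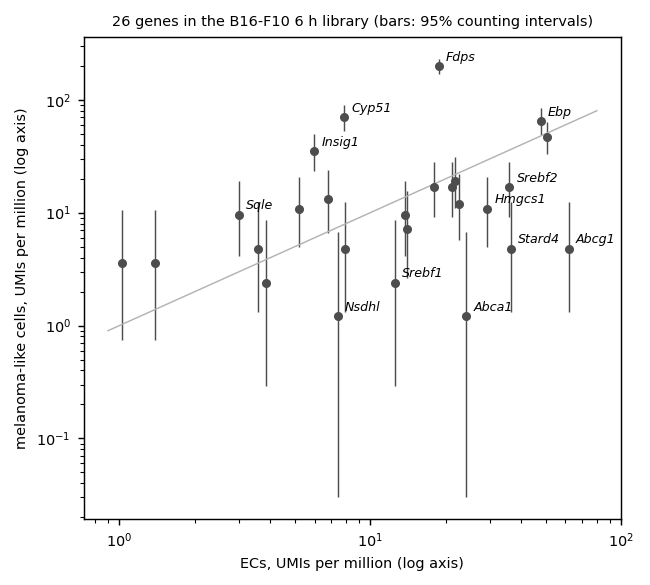
Each of the 26 genes in all ECs (horizontal) and in the 79 melanoma-like cells (vertical) of the B16-F10 6 h library, in CPM on log axes, with 95% counting intervals for the melanoma-like cells and a grey line at equal levels. Fdps, Cyp51 and Insig1 lie above the line, Abca1, Abcg1 and Stard4 below it.

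RNA of melanoma cells was also found in endothelial droplets. The pigment genes Pmel, Mlana, Dct, Tyrp1 and Tyr summed to 0.972 CPM in control gCap-like ECs and to 35.0 in B16-F10, against 19408 in melanoma-like cells, an admixture of 0.175%. At that share melanoma RNA would bring 0.122 CPM of Cyp51 to gCap-like ECs, where the difference between libraries was 2.10, and 0.801 CPM of the synthesis sum, where the difference was 27.9. Fdps would receive 0.348 of a difference of 2.61. Free RNA was read from barcodes with at most 100 UMIs. There the synthesis sum was 243 CPM in control and 270 in B16-F10, against 205 and 227 in all ECs. From markers of epithelial and immune cells, free RNA made up 1.51% of the UMIs of gCap-like ECs in control and 2.30% in B16-F10. Among markers of other cells, B16-F10 gCap-like ECs had higher sums than control for mural cells and fibroblasts (32.1 in control and 56.3 CPM in B16-F10) and macrophages (16.2 and 31.3), while platelet markers stood at 30.6 and 32.1. With gCap-like cells limited to those free of these markers, of neutrophil and pigment genes or of red cell genes other than haemoglobins, 3035 in control and 1501 in B16-F10, the log2 ratio of the synthesis sum was 0.16, with Mvd at 0.98, Abca1 at -0.52 and Abcg1 at 0.52. That selection was made after the data were seen, because haemoglobin RNA was in nearly every cell. Over all gCap-like ECs, neutrophil markers summed to 2.69 CPM in control and 8.20 in B16-F10. Red cell markers stood at 1214 and 1459, and epithelial markers were lower in B16-F10, at 187 and 158.

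Other sterol genes and fatty acid genes did not follow 1 pattern in gCap-like ECs. Of 24 other sterol genes measured, 15 were higher and 9 lower, with a median log2 ratio of 0.04, and 3 were called higher and 2 lower, beside 8.39% and 10.8% of all genes. The 3 highest were Ch25h, which makes 25-hydroxycholesterol, with 8 UMIs in control and 255 in B16-F10 (log2 ratio 5.02, 4.02 to 6.24), the HDL receptor Scarb1, a gene of the study's rCap list (116 and 288 CPM, 1.31), and the liver X receptor gene Nr1h3 (2.19 and 4.51, 1.04). The 3 lowest were the sterol transporter Gramd1c (3.39 and 1.55 CPM, -1.13), Mylip, a liver X receptor target that marks lipoprotein receptors for breakdown (49.5 and 27.6, -0.84), and the SREBP protease Mbtps2 (46.9 and 41.9, -0.16). Among the genes named here as liver X receptor targets, Mylip and Abca1 were lower and Abcg1 was higher. Targets of the receptor were not gathered as a list, so these genes do not describe the targets as a whole.

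Of the 15 fatty acid synthesis genes, 11 were lower and 4 higher after melanoma injection in gCap-like ECs, with a median log2 ratio of -0.23, and their sum was 425 CPM in control and 373 in B16-F10 (log2 ratio -0.19, -0.22 to -0.16). The lowest were Acss2, which makes acetyl-CoA from acetate (8.11 and 4.40 CPM, -0.88), the phosphatidate phosphatase Lpin1 (22.0 and 12.9, -0.77) and the desaturase Fads2 (1.53 and 1.18, -0.37, with an interval that included 0). The highest were the stearoyl-CoA desaturase Scd1 (2.89 and 5.44, 0.91, of which free RNA would supply 0.862 and 2.00 CPM), the fatty acid synthase Fasn (54 and 78 UMIs, 0.55) and the malic enzyme Me1 (17.5 and 22.8, 0.38). The elongase Elovl5, named after its values were seen, gave 232 and 195 CPM of that sum.

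The endothelial cluster with Noct and Fosl1 among its leading genes could not be compared well between libraries, since it held 40 control cells. In its 635 B16-F10 cells the synthesis sum was 173 CPM (163 to 183), below the 222 of gCap-like ECs in that library. Abca1 was at 6.28 CPM (4.51 to 8.52) and Stard4 at 16.2 (13.3 to 19.6), both below their gCap-like levels of 16.8 and 48.2. Hmgcs1, at 37.5 (33.0 to 42.5), and Abcg1, at 65.7 (59.6 to 72.2), were above theirs. Counted together with the gCap-like ECs, these cells brought the log2 ratio of the synthesis sum to 0.14 and that of Abca1 to -0.69.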

How the data were processed

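The authors deposited UMI counts per gene and barcode, made with Cell Ranger 7.2.0 on mm10 per the file headers and labels, for all barcodes with no filter on cells; the study's methods give an earlier Cell Ranger version, and the notes name Seurat 4.4.0. The deposited matrices summed to 85794655 (control) and 104978816 UMIs (B16-F10 6 h). Kept were barcodes of 1000 to 5000 detected genes whose mitochondrial share was below 20%, and the highest Scrublet scores, 564 and 554 cells, were removed as doublets. Cells were clustered with scanpy 1.11.5 and leidenalg 0.10.2 (30 components, resolution 0.8). Endothelial cells were clustered again on variable genes and components of the control library, leaving out the members, both other sterol lists and the study's rCap and hIFN lists, so that classes would follow vessel type. Marker lists named the clusters; vessel clusters under 20 cells stayed unnamed, and clusters with markers of other cells were set aside.

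Levels (CPM) are UMIs of a gene per 1000000 UMIs, over all cells of a class in a library. Levels carry exact Poisson intervals and log2 ratios exact conditional binomial intervals. No test was possible without replicates, and a call means a log2 ratio of 0.5 or more either way among genes with at least 50 UMIs. All 26 members are named; of the other lists, the 3 highest and 3 lowest ratios. Gene positions came from GENCODE M21 and promoters from RefSeq (GRCm38.p6), with chromosome 18 left out. Ratio intervals were tested on simulated counts with counting error alone. That simulation held no spread between cells, mice or libraries and cannot speak to it. Members and lists were chosen with earlier results of these data known. Alternatives covered filters, clustering, scaling, thinning, free RNA, cell weighting and RNA of other cells.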

Additional observations from a re-analysis of the deposited data

Results flagged for a closer look

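Abca1 was the member whose ratios lay on opposite sides of 0 in different vessel types with intervals that excluded 0 in each. It was lower after melanoma injection in gCap-like ECs, with a log2 ratio of -0.53, and higher in aCap-like ECs, with a log2 ratio of 0.21 whose interval only just cleared 0. The difference between the vessel types was not tested, since each had 1 library per group. Within the deeper aCap-like cluster the log2 ratio of Abca1 was 0.35 (0.10 to 0.61), and within the shallower it was 0.08 (-0.36 to 0.51). Of the 68 genes of the 3 sterol and fatty acid lists compared in this way, 2 had such opposite intervals. The share of all genes with opposite intervals was not computed, so the result is not shown to be particular to Abca1.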

How the results depend on the processing

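Of 461 values recomputed under alternatives, 426 stayed within the counting interval of the reported value or, for counts, within 1.5 times it. The log2 ratio of the synthesis sum in gCap-like ECs reversed to -0.36 in cells without a UMI of any other-cell marker, but haemoglobin left 20 control and 4 B16-F10 cells there, and no synthesis gene could then be called higher or lower (0 and 0). It was 0.14 with the largest unnamed endothelial cluster added and 0.15 over all ECs, both chosen after seeing the data. In aCap-like ECs it was 0.38 with every cell thinned to 2000 UMIs and 0.28 with each cell weighted equally, and in vein-like ECs 0.49 with thinning. The count of synthesis genes called lower in gCap-like ECs, which rested on Tm7sf2, went from 1 to 0 with doublets kept, with at least 500 genes, with members and sterol lists kept in clustering, at resolution 1.6, with thinning, with equal weights and in cells without other-cell markers, haemoglobins aside. Among single genes in gCap-like ECs, thinning took Fdps to 0.02 and Ebp to 0.01, and the call of Abca1 was lost with thinning (-0.34), at resolution 1.6 (-0.47) and over all ECs (-0.32); the cause was not tested. No paired analysis was possible because there was a single library for either treatment. Depth limits the genes under 100 UMIs, LEC- and artery-like ECs, and any statement on mice.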
